A study of Homo sapiens with 24 samples.

Results

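The histone genes of 24 RNA-Seq libraries from 3 TNBC cell lines were collected by gene symbol. The Hs578T and HCC70 tables use the older names, where symbols that begin HIST1H to HIST4H were taken along with H2AFZ, H2AFX, H3F3A and H3F3B, and both MDA-MB-231 tables use the newer names of the same genes (H1-, H2AC, H2BC, H3C, H4C, H2AZ1, H2AX, H3-3A and H3-3B). This gave 73 of 19283 rows in Hs578T, 71 of 18248 in HCC70, 91 of 60651 in the depletion table and 57 of 23792 in the overexpression table, 95 different genes in all. They comprised 66 genes of the histone clusters, 5 germ-cell type genes, 5 replacement variants without the hairpin described below, H2AX, and 18 pseudogenes and RNA genes. The choice went by symbol and used no measured value, but it was made with earlier results of these data known.

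BCSCs, gated on CD24-CD44+ and ALDH+ cells, and non-BCSCs had been sorted by flow cytometry from wild-type Hs578T and HCC70 cells. MDA-MB-231 cells, a further established TNBC line, had been infected with lentivirus to carry either a control sgRNA (sgCtrl) or an sgRNA against KIF20A (KIF20A sg1), a kinesin of cell division, and in a separate experiment had received an empty vector (EV) or a KIF20A expression vector (KIF20A OE). Each of the 8 groups held 3 libraries that the labels call biological triplicates. Every library is labelled as made by poly-A selection with a stranded mRNA kit, each of the 4 tables is 1 batch in the labels, and the tables were normalized separately, so levels set across tables carry no test.

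Replication-dependent histone genes lie in clusters, the largest on chromosome 6, have no introns and are transcribed in S phase. Their mRNAs end after a conserved hairpin, which SLBP binds, and carry no poly-A tail, whereas replacement variants such as H3.3 and H2A.Z come from genes with introns and polyadenylated mRNAs and are made throughout the cell cycle. Poly-A selection therefore captures cluster mRNAs poorly as a rule, and a few cluster genes are known to make a polyadenylated form as well.

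The hairpin was found within 100 bases after the stop codon in 65 of the 77 protein-coding genes collected here (84.4%). It was also found in 3 of 19819 protein-coding genes that were not collected (0.0151%). These were FOXRED1 and the H3 histone genes H3-4 and H3-7. The search used GENCODE 44 transcripts on GRCh38. It counted only hairpins that began GG, with exact pairing along the whole stem and T at set places. A stem with a mismatch was not counted. The 26 bases around the hairpin are shown 5′ to 3′ for genes on which the comparisons below turn, with the 16 bases of the hairpin in capitals.
H2BC1 (HIST1H2BA, chr6:25727320-25727345, + strand): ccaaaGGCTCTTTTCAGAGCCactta
H2AC1 (HIST1H2AA, chr6:25726063-25726088, - strand): caaaaGGCTCTTTTCAGAGCCaccta
H1-2 (HIST1H1C, chr6:26055739-26055764, - strand): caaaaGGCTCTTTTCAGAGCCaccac
H2BC11 (HIST1H2BJ, chr6:27132316-27132341, - strand): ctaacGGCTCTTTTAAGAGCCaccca
H2BC12 (HIST1H2BK, chr6:27146361-27146386, - strand): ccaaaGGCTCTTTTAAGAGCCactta
H4C5 (HIST1H4E, chr6:26204996-26205021, + strand): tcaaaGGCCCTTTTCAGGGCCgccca
H4C11 (HIST1H4J, chr6:27824454-27824479, + strand): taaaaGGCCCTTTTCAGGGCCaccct
H4C12 (HIST1H4K, chr6:27831173-27831198, - strand): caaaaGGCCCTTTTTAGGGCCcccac
H2AX (H2AFX, chr11:119094893-119094918, - strand): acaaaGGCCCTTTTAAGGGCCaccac
Among the hairpins that this search could find, the stem came in forms that followed the family. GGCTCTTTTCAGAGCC was the form of 40 genes, 4 of H1, 13 of H2A, 12 of H2B and 11 of H3, while all 14 H4 genes with a hairpin had a stem of the GGCCC type, 10 as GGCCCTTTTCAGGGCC and 4 as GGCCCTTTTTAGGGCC. H2AX was the other gene with a GGCCC stem. No exact hairpin was found for H2AZ1, H3-3A, H3-3B and H1-10, which are replacement variants. The same held for the cluster genes H3C6, H2BC10, H2AC11, H2AC15 and H4C13 and the germ-cell type genes H1-7 and H1-8. Imperfect hairpins were not searched for, so these genes may still have one.

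Cluster genes were abundant in the sorted lines and scarce in MDA-MB-231. They took 0.704% to 0.838% of all recovered reads in the 6 Hs578T libraries and 0.609% to 0.697% in HCC70, against 0.00516% to 0.00717% in the depletion table and 0.0173% to 0.0247% in the overexpression table. In Hs578T 41 of 64 cluster rows averaged at least 100 TPM and 13 at least 1000 TPM, and in HCC70 51 of 62 and 11 did so. After depletion or its control, 22 of 63 cluster rows had 0 reads in all 6 libraries and 2 reached a mean of 10, and in the overexpression experiment 5 of 49 reached 10 CPM.

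**Figure D1:**
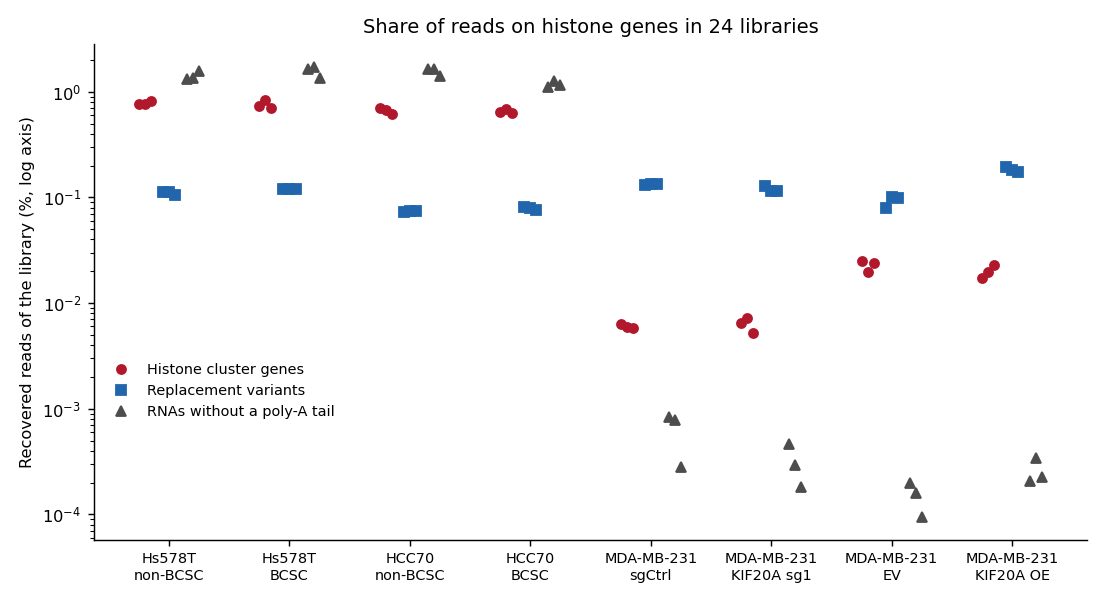
Percent of recovered reads (log axis) on cluster genes (circles), replacement variants (squares) and RNAs without a poly-A tail (triangles), 1 point for each of the 24 libraries in 8 groups. Cluster genes lie at 0.609% to 0.838% in the sorted lines and at 0.00516% to 0.0247% in MDA-MB-231, while replacement variants lie between 0.0727% and 0.193% throughout. The tables list different RNAs without a tail, 6 to 11 of 12.

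Replacement variants did not show that gap. Their share was 0.106% to 0.121% for the Hs578T libraries, 0.0727% to 0.0802% for HCC70, 0.114% to 0.135% with sgCtrl or KIF20A sg1, and 0.0786% to 0.193% for EV and KIF20A OE. Linker histone variants such as H1-10 enter these shares only in MDA-MB-231, since their older symbols fall outside the choice. RNAs that carry no tail were, like the cluster genes, abundant in the sorted lines and scarce in MDA-MB-231. Between the 2 MDA-MB-231 tables they did not rise with the cluster genes. They took 0.000183% to 0.000842% of reads in the depletion table and 9.41e-05% to 0.000343% in the overexpression table, which list different RNAs of this kind. RMRP, the RNA of RNase MRP, stood at 85287 to 108779 TPM in Hs578T and 48891 to 68708 TPM in HCC70, and the list of such RNAs took 1.31% to 1.73% and 1.11% to 1.66% of reads there, but at most 0.000842% in either MDA-MB-231 table. Whether library preparation, cell line or sorting goes with this gap cannot be told apart, because each table is 1 line or experiment and 1 batch.

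The order of cluster genes also differed between the sorted lines and MDA-MB-231. H1-2, H2AC6, H2BC5, H2BC12 and H2BC21 are cluster genes known to give polyadenylated mRNA as well. Their share of all cluster-gene reads was 19.0% to 20.5% in Hs578T libraries and 17.3% to 19.3% in HCC70, and 61.5% to 67.5% in the depletion table and 59.4% to 79.9% in the overexpression table. Per kilobase of annotated transcript, H2BC12, H1-2, H2AC6 and H2BC5 ranked 1, 2, 3 and 5 among 63 cluster rows of the depletion table and 1, 2, 3 and 5 among 49 of the overexpression table, with H4C9 at rank 4 in both. The fifth of these genes, H2BC21, ranked 20 and 13. In Hs578T the ranks of H1-2, H2BC5, H2AC6, H2BC12 and H2BC21 were 1, 7, 19, 20 and 40 of 64, and in HCC70 2, 7, 31, 9 and 44 of 62.

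**Figure D2:**
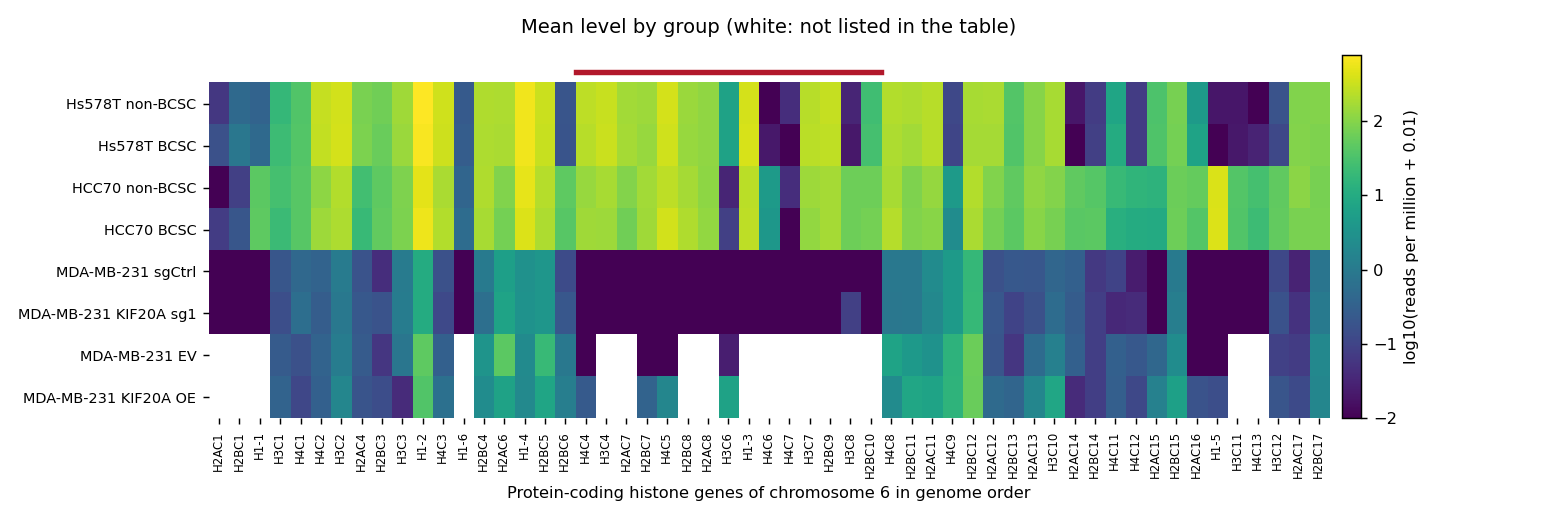
Mean CPM of recovered reads of each protein-coding histone gene of chromosome 6 (log10 after adding 0.01, colour) in genome order from left to right, for the 8 groups; white marks genes not listed in a table and the bar marks 15 neighbouring genes. The sorted lines are high over most of the cluster, and the 15 neighbours have 0 reads in sgCtrl and 10 in KIF20A sg1.

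Hs578T and HCC70 used different cluster genes. Of 55 protein-coding histone genes on chromosome 6 listed for both lines, 12 averaged under 5 TPM in Hs578T and at least 20 TPM in HCC70, and 1 showed the reverse. HIST1H1B, a linker histone gene, had 0 to 0.0907 TPM over the 6 Hs578T libraries, 1 read in all, and 1215 to 1464 TPM in HCC70. HIST1H3G had 0 to 0.184 TPM in Hs578T and 305 to 367 TPM in HCC70, and HIST1H2AJ 0 to 0.163 TPM against 221 to 290 TPM. The ranges of the lines lay far apart for each of these core and linker histone genes. HIST1H2BM, HIST1H3I, HIST1H4L, HIST1H3J, HIST1H1A, HIST1H2BE, HIST1H4F, HIST1H4K and HIST1H4I, the other 9, had at most 1.69 TPM in any Hs578T library and at least 15.2 TPM in every HCC70 library. The reverse case was HIST1H3E, with 30.99 to 37.9 TPM in Hs578T and 0 to 0.653 TPM in HCC70. These are levels of separately normalized tables with 1 line each, and the difference between the lines was not tested.

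A run of neighbouring genes was at or near 0 in MDA-MB-231. From H4C4 to H2BC10 (chr6:26188710-26273412, 15 protein-coding histone genes, limits chosen after the values were seen) the 3 sgCtrl libraries held 0 of 144203997 reads and the KIF20A sg1 libraries 10 reads, all on H3C8, while the other 40 histone genes of chromosome 6 held 8195 and 8347 reads. In the sorted lines the same 15 genes held 151745 to 226437 reads per group. The EV libraries had 1 read there, on 4 listed genes. In the 3 libraries labelled KIF20A OE these 4 genes had 517 reads. A gene model of this region, ENSG00000282988, shares exon bases with H3C4 and H2AC7, so that the counts of these genes are uncertain.

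The germ-cell type genes had few reads in the sorted lines. HIST1H2BA, the testis-type H2B gene known as TH2B, and HIST1H2AA, its H2A neighbour, are transcribed from opposite strands, and their promoters of 300 bases share 286 bases. The 250 bases before the start of H2BC1 in RefSeq (GRCh38.p14, chr6:25726527-25726776, + strand) are shown with matches to TATAAA, to the octamer ATTTGCAT and to CCAAT in capitals on either strand.
H2BC1 promoter: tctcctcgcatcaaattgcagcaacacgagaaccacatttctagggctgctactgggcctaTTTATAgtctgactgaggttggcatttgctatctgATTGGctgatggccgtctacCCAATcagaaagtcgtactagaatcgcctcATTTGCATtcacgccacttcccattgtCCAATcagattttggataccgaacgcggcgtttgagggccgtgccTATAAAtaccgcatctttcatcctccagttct
It holds 1 octamer, 2 TATAAA and 3 CCAAT matches. Promoters of 300 bases were found for 71 of 77 protein-coding members, 79 promoters in all. The octamer was in 15 of 20 H2B promoters (75%), 11 of 18 H2A (61.1%), 2 of 18 H3 and none of the 10 H1 or 13 H4 promoters, against 1.77% of 35116 promoters in the table. CCAAT was in every H2A and H2B promoter, in 3 of 13 H4 promoters (23.1%) and in 34.6% of all. TATAAA was in 14 of 18 H2A (77.8%) and 14 of 20 H2B promoters (70%), against 11.5% of all.

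HIST1H2BA was higher in BCSCs of both sorted lines, at few reads. The paper had picked this gene from the same libraries as differing between the fractions in both lines. Its direction and tests here are therefore no independent support. The paper also reported HIST1H2BA as significantly higher by RT-qPCR in sorted BCSCs of both lines, a measurement outside these libraries. In Hs578T it had 2.16, 2.97 and 2.62 TPM in the non-BCSC libraries and 4.45, 5.21 and 4.40 TPM in the BCSC libraries, from 11 to 17 and 25 to 30 reads per library. All BCSC libraries lay above all non-BCSC libraries, and the difference on the log2(TPM + 1) scale was 0.67 ± 0.11 (SE, n = 3 per group), with an adjusted p of 0.0112 in limma over all genes. The summed reads were 44 and 82, a ratio per depth of 1.82 (95% exact interval 1.25 to 2.69, counting error only; exact binomial p = 0.00125), and the two-sided exact permutation test gave 0.1, the smallest p that 3 against 3 allows. DESeq2 on recovered reads did not call it (adjusted p = 0.236), and over all 13 alternatives, 12 of them past the threshold, the adjusted p ranged from 0.00936 to 0.236.

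**Figure D3:**
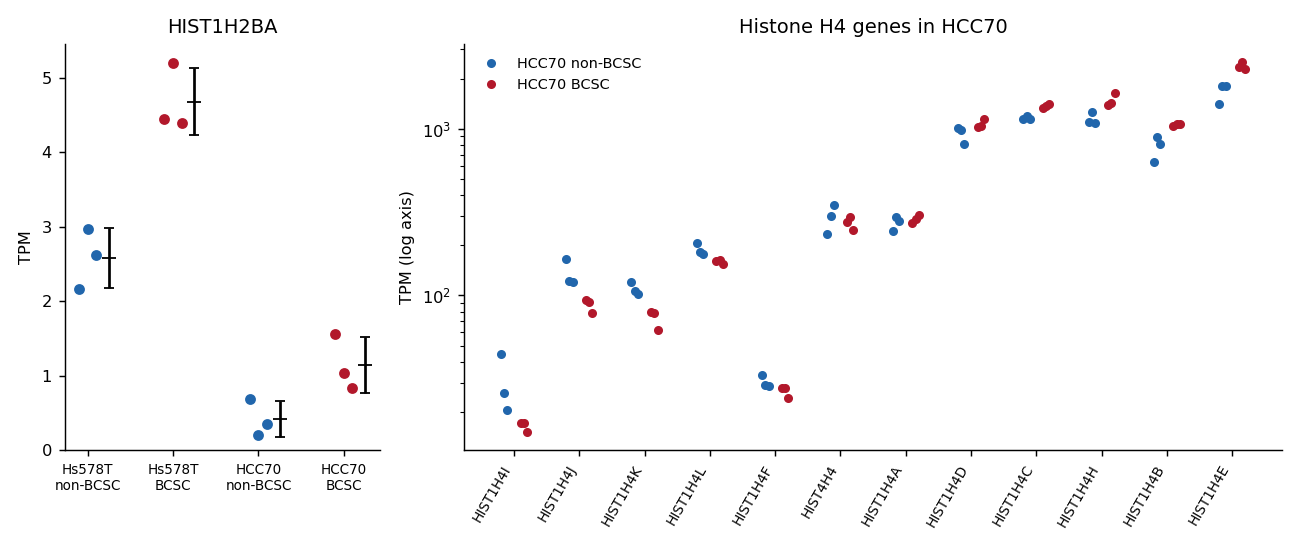
Left, TPM of HIST1H2BA in the 12 sorted libraries, with the mean ± SD of each group of 3; right, TPM (log axis) of the 12 tested H4 genes in HCC70 libraries, ordered by their difference. HIST1H2BA lies at 2.16 to 2.97 in Hs578T non-BCSCs and 4.40 to 5.21 in BCSCs, and of the H4 genes 5 lie wholly higher and 5 wholly lower in HCC70 BCSCs. Of all genes tested in HCC70 20.9% lie wholly higher and 10.1% wholly lower.

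In HCC70 HIST1H2BA fell under the minimum mean of 1 TPM for the test. Its libraries had 0.682, 0.204 and 0.356 TPM in non-BCSCs (3, 1 and 2 reads) and 1.55, 1.04 and 0.832 TPM in BCSCs (9, 6 and 4 reads). The groups did not overlap, and the summed reads of 6 and 19 gave a ratio of 2.79 (95% exact interval 1.07 to 8.53, exact binomial p = 0.0264, exact permutation p = 0.1). Without non-BCSC replicate 2, non-BCSC replicate 3 or BCSC replicate 1 the ratio was 2.27, 2.59 or 2.28 and the exact binomial p was 0.138, 0.0823 or 0.129. HIST1H2AA had 5 and 15 reads in Hs578T non-BCSCs and BCSCs, and 0 and 6 in HCC70. In each line 1 BCSC library had none, and the exact permutation p was 0.4 in both lines. The read ratio in Hs578T was 2.94 (95% exact interval 1.014 to 10.3, exact binomial p = 0.0416), and without any 1 of 4 libraries, non-BCSC replicates 1 and 3 and BCSC replicates 1 and 3, it was 2.01 to 2.55 with an exact binomial p of 0.103 to 0.2498. Without non-BCSC replicate 2 it was 4.84 (exact binomial p = 0.0233) and without BCSC replicate 2 4.34 (exact binomial p = 0.00248). HIST1H1T, the testis linker histone H1t, had 0.537 to 1.15 TPM in Hs578T and 0.492 to 2.71 TPM in HCC70, with overlapping groups in both. In the depletion table all 5 germ-cell type genes had 0 reads, which allows HIST1H2BA up to 0.0105 CPM over the 6 libraries, and the overexpression table does not list the gene.

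Few other members passed the test of limma between BCSCs and non-BCSCs. In Hs578T 2 of 54 tested members passed, 1 higher (HIST1H2BA) and 1 lower, where 7.15% of all tested genes did (2.9% higher, 4.26% lower). In HCC70 2 of 65 passed, both lower, where 2.83% of all genes passed and 0.552% were lower. The HCC70 count was 6 in edgeR (3 higher, 3 lower) and 14 in DESeq2 (6 higher, 8 lower), both on recovered reads. The share of all genes called by edgeR or DESeq2 is not given, and the limma shares are not their background. At an unadjusted p under 0.05 there were 11 members in Hs578T and 22 in HCC70, against 22.5% and 23.7% of all genes. The median difference over the members was -0.03 in Hs578T and -0.03 in HCC70, beside -0.01 and 0.02 over all genes tested. Groups lay apart for 14 of the 54 Hs578T members, 5 higher and 9 lower, where 29% of all genes were apart (12% higher and 17% lower).

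**Figure D4:**
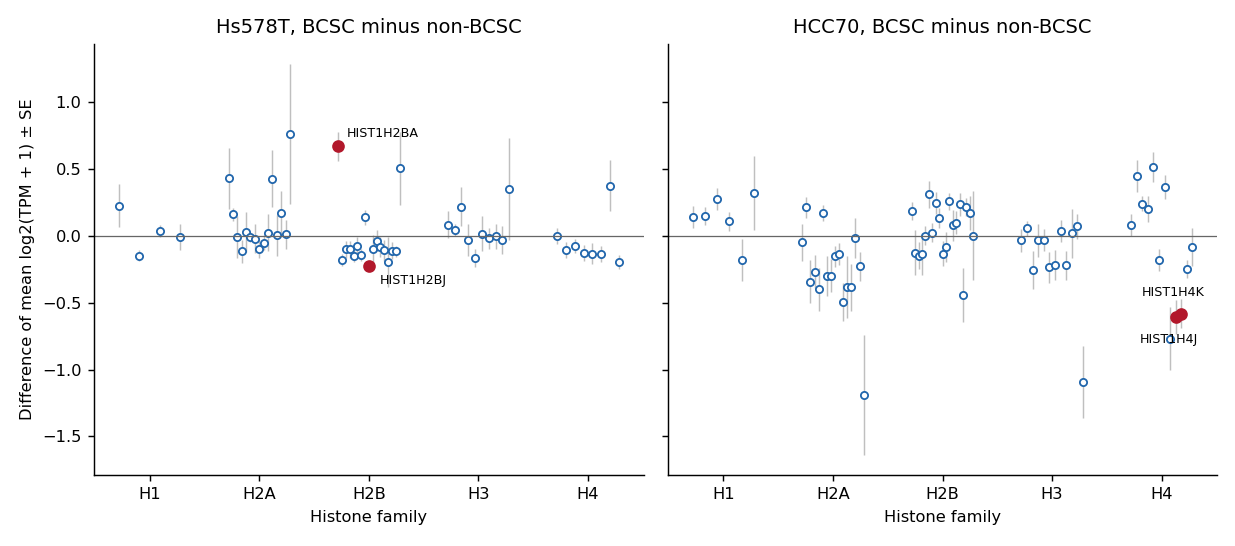
Difference BCSC minus non-BCSC of mean log2(TPM + 1), with its SE, for each tested member by histone family in Hs578T (left) and HCC70 (right); filled points passed the test at an adjusted p under 0.05. In HCC70 the H4 genes spread from -0.77 to 0.51, and 2 of them, HIST1H4J and HIST1H4K, passed.

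Libraries that stood apart touch these values. Hs578T BCSC replicate 2 held 89 genes at 2 or more times both other BCSC libraries (24 to 39 in the other 5 libraries), and HCC70 non-BCSC replicate 1 held 91 (13 to 51 in the others). Members among them were HIST2H3D, HIST3H2A and HIST3H2BB in the former and HIST3H2A and HIST3H2BB in the latter. In these 2 libraries the gap of a member to its group rose with the GC content of its transcript (Pearson's r = 0.57 over 54 members and 0.50 over 65, as a description). The same r was 0.57 in HCC70 BCSC replicate 2, which did not stand apart, and over all genes it was 0.27 in Hs578T BCSC replicate 2 and -0.11 in HCC70 non-BCSC replicate 1. In the libraries that stood apart SCARNA2, a small RNA without a tail, was at 971 and 726 TPM against medians of 335 and 250 TPM in their groups. The part of this in the results was not tested. HIST2H3D in Hs578T had 103, 102 and 114 TPM in non-BCSCs and 121, 268 and 76.3 TPM in BCSCs, so that its mean rested on replicate 2. HIST3H2A in HCC70 had 30.2, 8.09 and 8.01 TPM in non-BCSCs and 5.63, 5.94 and 3.67 TPM in BCSCs, with the groups apart but an adjusted p of 0.162.

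HIST1H2BJ, an H2B gene, fell in Hs578T BCSCs. It had 949, 934 and 968 TPM in non-BCSCs and 819, 837 and 788 TPM in BCSCs, a difference of -0.22 ± 0.04 (SE, adjusted p = 0.023 in limma). All BCSC libraries lay below. It missed the threshold without any 1 of the non-BCSC libraries or without BCSC replicate 1, at -0.24 to -0.21, and the adjusted p over all alternatives ranged from 0.00202 to 0.107. Over the H2B cluster genes 13 of 15 tested had a negative difference, with 5 groups apart lower and 1 higher, and HIST1H2BJ alone passed. Of all genes tested 17% lay apart lower and 12% higher. The median difference of the H2B cluster genes was -0.10, beside -0.01 over all genes, whose share of negative differences is not given. The summed H2B level was 8485, 8504 and 8905 TPM in non-BCSCs and 7789, 8352 and 7755 TPM in BCSCs. Over all tested members 34 of 54 differences were negative, and without BCSC replicate 2 they were 41 of 54 with a median of -0.12, beside -0.01 over all genes.

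The most abundant cluster genes of Hs578T did not pass. HIST1H1C, the linker histone H1.2 gene and the highest by TPM, had 2526, 2592 and 2518 TPM in non-BCSCs and 2304, 2334 and 2252 TPM in BCSCs (-0.15 ± 0.04, adjusted p = 0.0856 in limma). Its groups did not overlap. HIST1H4E, HIST1H4C, HIST1H4B and HIST1H3B, at means of 2282, 2027, 1891 and 1849 TPM, had differences of -0.13, -0.08, -0.11 and -0.03 and overlapping groups. H2AFZ, the H2A.Z gene, had 1509.6, 1513 and 1394 TPM in non-BCSCs and 1659, 1611 and 1663 TPM in BCSCs (0.16 ± 0.05, adjusted p = 0.1 in limma, past the threshold in 4 of 14 alternatives). Its BCSC libraries were all higher. H2AFX had 38.8, 41.0 and 39.8 TPM and 46.1, 83.4 and 41.1 TPM (adjusted p = 0.316), and HIST1H2AC, HIST1H2BD, HIST1H2BK and HIST2H2BE had differences of -0.12, -0.10, -0.10 and -0.11 with overlapping groups. H3F3B, an H3.3 gene, had 437 to 475 TPM in non-BCSCs and 470 to 478 TPM in BCSCs, with overlapping groups. The second H3.3 gene, H3F3A, had 6.54 to 8.498 TPM, and its reads equalled those of the pseudogene H3F3AP4 in every library, so its level is uncertain.

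In HCC70 the H4 genes split. HIST1H4J had 165, 122 and 121 TPM in non-BCSCs and 94.1, 91.4 and 78.9 TPM in BCSCs (-0.61 ± 0.13, adjusted p = 0.0492 in limma). HIST1H4K had 121, 107 and 102 TPM and 79.3, 78.7 and 61.9 TPM (-0.58 ± 0.11, adjusted p = 0.0398 in limma). Both fell with no overlap between the groups. Neither passed without any 1 of 5 libraries, non-BCSC replicates 2 and 3 and BCSC replicates 1 to 3, where HIST1H4J ranged from -0.69 to -0.53 and HIST1H4K from -0.64 to -0.47, and HIST1H4K also missed without non-BCSC replicate 1, at -0.51. The adjusted p ranged over the alternatives from 5.12e-05 to 0.143 for HIST1H4J and from 0.000159 to 0.0986 for HIST1H4K.

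More abundant H4 genes lay on the other side. HIST1H4E, the highest cluster gene of HCC70, had 1401, 1804 and 1817 TPM in non-BCSCs and 2338, 2499 and 2293 TPM in BCSCs (0.51 ± 0.11, adjusted p = 0.0539 in limma), and passed with a minimum of 5 TPM, in edgeR and DESeq2, and without non-BCSC replicate 1 at 0.39. HIST1H4B had 636, 896 and 812 TPM and 1033, 1061 and 1067 TPM (0.45 ± 0.12, adjusted p = 0.0814). HIST1H4H had 1104, 1259 and 1088 TPM and 1395, 1418 and 1636 TPM (0.37 ± 0.09, adjusted p = 0.0705). These genes did not overlap between the groups but missed the threshold. The GC content of the transcript is 55.3%, 54.9% and 52.3% for HIST1H4E, HIST1H4B and HIST1H4H, and 61.7% and 62.0% for HIST1H4J and HIST1H4K. HIST1H4F, at 54.9%, went the other way, with 4.52 mean CPM of recovered reads in non-BCSCs and 3.84 in BCSCs. The part of GC content in the split was not tested. The summed H4 level was 6339.7, 7200.2 and 6743 TPM in non-BCSCs and 8056, 8346 and 8435 TPM in BCSCs, and H4 genes held 19.8%, 23.9% and 24.0% of the cluster sum in non-BCSCs and 26.3%, 26.2% and 27.5% in BCSCs. The H2A sum overlapped, at 6208, 4769 and 4931 TPM and 4565, 4858 and 4080.1 TPM.

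Of the HCC70 members 15 had groups wholly higher and 10 wholly lower in BCSCs, 25 of 65 in a table where 30.9% of all genes were apart (20.9% higher and 10.1% lower). Across the 65 members the difference fell with the GC content of the transcript (r = -0.58, without HCC70 non-BCSC replicate 1 -0.50, as a description over genes that share libraries), whereas over 12830 genes r was -0.02. The median member difference was 0.05 without that replicate, with 37 positive and 28 negative. HIST1H1C stood at 1494, 1793 and 1715 TPM in non-BCSCs and 1980, 2064 and 1985 TPM in BCSCs (0.27 ± 0.08, adjusted p = 0.111 in limma). HIST1H1E, another linker histone gene, had 1292 to 2023 TPM in non-BCSCs and 1304 to 1518 TPM in BCSCs, and HIST1H1B 1215 to 1325 and 1354 to 1464 TPM (0.15, adjusted p = 0.227). Of the genes known for polyadenylated mRNA, HIST2H2BE lay higher (189 to 213 and 219 to 245 TPM, adjusted p = 0.116), HIST1H2AC lower (355 to 509 and 334 to 354 TPM, adjusted p = 0.233), and HIST1H2BD and HIST1H2BK overlapped. H2AFX had 12.6 to 17.8 and 12.9 to 15.7 TPM. H2AFZ had 933, 948 and 1046 TPM and 1182, 1173 and 1039 TPM (0.21 ± 0.08, adjusted p = 0.156 in limma), and H3F3B 311 to 327 and 313 to 341 TPM.

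Whether the BCSC difference itself differed between the lines was tested in a model of the 12 sorted libraries, where cell line is also the batch and the table. Of 52 members 8 passed, 7 higher and 1 lower in HCC70 relative to Hs578T, where 7.11% of all genes passed, 5.62% of them higher and 1.49% lower as shares of the genes tested. The 7 were HIST1H4E, HIST1H4B, HIST1H4H, HIST1H4C, HIST1H1C, HIST1H2BB and HIST1H2BJ, and the 1 was HIST1H4J. The GC content of the transcript is 51.3% to 56.4% for the 7 and 61.7% for HIST1H4J, beside a median of 57.6% over the tested members of each line. The part of GC content in this was not tested. HIST1H4E differed by 0.65 ± 0.14 (adjusted p = 0.0229 in limma), from -0.13 in Hs578T to 0.51 in HCC70. HIST1H1C differed by 0.42 ± 0.09 (adjusted p = 0.0228), from -0.15 to 0.27. The count was 0 without Hs578T non-BCSC replicate 2 or without Hs578T BCSC replicate 1, 3 without Hs578T non-BCSC replicate 1 or 3 or Hs578T BCSC replicate 2, 2 without HCC70 BCSC replicate 1 or 2, and 3 without both libraries that stood apart. The share of all genes called in these fits is not given, and 7.11% is not their background.

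Genes that act on histone mRNA did not pass the test between the fractions. Of 12 factors for histone transcription and mRNA ends, such as SLBP and NPAT, 0 passed in limma in either line (0 and 2 at an unadjusted p under 0.05 in Hs578T and HCC70). Of 16 S phase genes 0 passed in limma (2 and 3 at an unadjusted p under 0.05). Of all genes tested in limma 7.15% passed in Hs578T and 2.83% in HCC70, and 22.5% and 23.7% had an unadjusted p under 0.05. In lists this small a count of 0 does not set the genes apart from those shares. SLBP, the hairpin-binding protein, had 90.7 to 103 TPM in Hs578T non-BCSCs and 93.8 to 98.6 TPM in BCSCs. Among 9 histone chaperones HJURP, the chaperone of the centromeric H3, rose in both lines, by 0.30 (adjusted p = 0.00649 in limma) in Hs578T and 0.49 (adjusted p = 0.00788) in HCC70, and ASF1B in HCC70 alone passed (0.30, adjusted p = 0.0426), a difference between the lines that was not tested. Among other variants CENPA, the centromeric H3, rose from 74.2, 79.0 and 66.2 to 92.4, 88.0 and 89.7 TPM in Hs578T (0.30, adjusted p = 0.0358) and from 35.7, 34.4 and 40.1 to 59.1, 59.4 and 52.6 TPM in HCC70 (0.62, adjusted p = 0.00966). The BCSC libraries lay above all non-BCSC libraries for CENPA in both lines. KIF20A rose in the same comparisons, by 0.45 and 0.80.

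KIF20A depletion changed no member past the test. The targeted gene had 153, 173 and 156 in sgCtrl and 122, 145 and 91.1 in KIF20A sg1 in the table's signal, reads divided by 1 factor per library (adjusted p = 0.69 in limma). Of 18 tested members none passed in limma, edgeR or DESeq2, as for 0% of all 12852 genes in limma, and 2 had an unadjusted p under 0.05, against 7% of all genes. H1-10, a linker histone of the replacement type, had 112, 120 and 70.5 in sgCtrl and 79.9, 65.7 and 56.9 in KIF20A sg1 (-0.55 ± 0.20, adjusted p = 0.69 in limma), and passed only without sgCtrl replicate 3, at -0.79 (adjusted p = 0.0427). The groups overlapped, and H1-10 has an antisense partner, H1-10-AS1, that shares 247 exon bases with it.

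Other members did not pass either. H3-3B had 391 to 453 in sgCtrl and 375 to 414 in KIF20A sg1, H2AX 319 to 342 and 290 to 387, H2AZ1 308 to 382 and 312 to 346, and H3-3A 155 to 194 and 155 to 182. The groups overlapped for each. The cluster genes with most reads, H2BC12 and H1-2, had 15.9 to 20.0 and 8.95 to 12.1 in sgCtrl and 15.3 to 22.5 and 7.01 to 12.9 in KIF20A sg1. The remaining 3 genes named by the smallest p, H2BC20P, H2BC21 and H2AC6, lay at 0.923 to 7.68 with adjusted p of 0.7 to 0.761 in limma. The first 2 of these lay wholly higher in KIF20A sg1 and no member lay wholly lower, where 5.73% of all genes lay higher and 7.3% lower.

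The libraries labelled KIF20A OE differed from EV over most of the transcriptome, and this stands beside every member. Of all genes tested 69.7% passed, 46.2% higher and 23.4% lower. All 5 MDA-MB-231 markers were lower than in EV. CD44 went from 523 to 788 CPM in EV to 0.125 to 1.23 CPM. AXL went from 811 to 1107 CPM to 0.75 to 0.811 CPM. CAV1 went from 664 to 771 CPM to 13.8 to 26.5 CPM, and NT5E from 1191 to 1273 CPM to 0.125 to 0.428 CPM. VIM had 2520 to 2735 CPM in EV and 347 to 776 CPM in the labelled libraries, beside 555 to 795 in the signal of sgCtrl. For CD44, AXL, CAV1 and NT5E the libraries labelled KIF20A OE go against the marker profile of the line. Their VIM range overlaps that of sgCtrl, in another unit. KIF20A had 101, 143 and 124 CPM in EV and rose to 1348, 269 and 896 CPM. All 3 exceeded EV. KIF20A and this wider difference cannot be told apart.

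Of 27 tested members 16 passed, 12 rising and 4 falling from EV, and 8 and 8 after quantile normalization. Of the 12, H3C6, H2AC13 and H3-3B averaged under 1 CPM in EV and reached the minimum through the labelled libraries. At an unadjusted p under 0.05 there were 19, against 72.2% of all genes, and 18 lay apart, against 74.1%. The median member difference was 0.48 beside 0.37 over all genes, 0.17 beside 0.04 after scaling by the median of ratios, and -0.13 beside 0.09 after quantile normalization. H2AC6 and H2BC5, both cluster genes known for polyadenylated mRNA, were lower. H2AC6 had 60.03, 34.9 and 42.9 CPM in EV and 4.32, 8.88 and 6.75 CPM in the labelled libraries (-2.63 ± 0.28, adjusted p = 6.51e-05 in limma). H2BC5 had 29.1, 12.2 and 18.9 CPM and 6.82, 7.84 and 7.33 CPM (-1.26 ± 0.29, adjusted p = 0.00453). H2BC21, of the same set, went the other way, with 3.71, 2.95 and 3.47 CPM and 18.5, 11.45 and 13.5 CPM (1.80 ± 0.22, adjusted p = 0.00014). H1-2 had 41.5, 45.4 and 56.4 CPM and 33.2, 36.3 and 38.1 CPM (-0.39 ± 0.15, adjusted p = 0.0447), and missed the threshold without EV replicate 2 or 3 or any 1 of the labelled libraries, at -0.44 to -0.27. H2BC12 overlapped at 57.9 to 68.9 and 44.8 to 75.6 CPM.

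**Figure D5:**
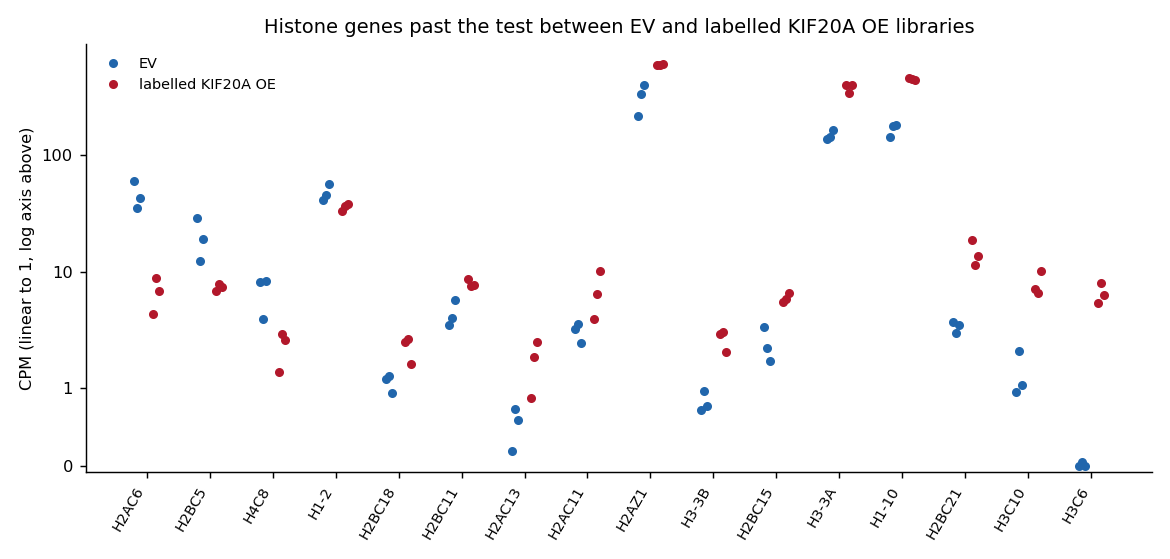
CPM (linear up to 1, log axis above) of the 16 members past the test in the 3 EV and the 3 labelled KIF20A OE libraries, ordered by their difference, 1 point per library. The 4 at the left are lower and the 12 at the right higher in the labelled libraries, with no overlap for any of them. Of the 12, H3C6, H2AC13 and H3-3B reached the minimum mean only through the labelled libraries, which favours a call as higher.

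Replacement variants were higher. H3-3A had 139, 143 and 163 CPM in EV and 403, 343 and 396 CPM in the labelled libraries (1.36 ± 0.12, adjusted p = 2.06e-05 in limma). H1-10 had 143, 178 and 182 CPM and 457, 452 and 440.3 CPM (1.42 ± 0.12, adjusted p = 1.88e-05). H2AZ1 had 216, 333 and 403 CPM and 597, 592 and 604 CPM (0.96 ± 0.21, adjusted p = 0.00357). No group overlapped for these 3. H3-3B stood at 0.714 to 3.02 CPM, against 375 to 453 in the depletion table of the same line, and its level is uncertain. H2AX, at 147 to 331 CPM, missed the threshold (adjusted p = 0.0637).

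Of 3 tested H3 cluster genes, H3C10 and H3C6 lay wholly higher and H3C2 overlapped. H3C6 had 0, 0.0483 and 0 CPM in EV, 1 read in all, and 5.38, 7.98 and 6.26 CPM in the labelled libraries. It reached the minimum mean through the labelled libraries alone, so its test is not given, and its read ratio of 393, from 1 and 380 reads, carries a 95% exact interval of 70.02 to 15544 (counting error only). H3C10 had 0.952, 2.08 and 1.06 CPM and 7.14, 6.49 and 10.1 CPM (1.92 ± 0.25, adjusted p = 0.000223 in limma). Every labelled library exceeded every EV library for both. H4C8 was lower, with 8.09, 3.91 and 8.35 CPM and 1.38, 2.93 and 2.57 CPM (-1.22 ± 0.31, adjusted p = 0.00829). The cluster sum itself overlapped, at 198 to 247 CPM in EV and 173 to 228 CPM. Of 12 histone mRNA factors 9 were higher, SLBP from 70.4, 80.5 and 102 to 213, 145 and 234 CPM, and of 16 S phase genes 14 were higher, again beside 46.2% of all genes.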

How the data were processed

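RNA was measured by RNA-Seq in 24 libraries, all labelled as poly-A selected and stranded. Per the labels, the submitters' processing notes name HISAT2 2.0.5, featureCounts 1.5.0-p3 and GRCh38; the paper names DESeq2 for its tests. The authors deposited TPM for Hs578T and HCC70, a signal for the depletion experiment (reads divided by 1 factor per library) and CPM for the overexpression experiment. Whole reads were recovered for 100% of genes, with a tolerance of 0.003 for TPM (wider for the largest counts) and a looser one for signal and CPM. In simulated TPM 98.1% of genes were exact and 1.93% came out divided by a common divisor. In the data 346 genes of Hs578T and 397 of HCC70 were multiplied by such a divisor. Libraries held between 28403151 and 33973761 recovered reads (Hs578T), 24984030 and 33986022 (HCC70), 41424338 and 51018667 (depletion) and 15971297 and 22182293 (overexpression). Intervals and limits of 0 (3 counts) cover counting error only.

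Each table was tested alone for genes whose mean over its 6 samples reached 1, by limma 3.58.1 (R 4.3.3, trend, two-sided, Benjamini-Hochberg over all genes) on log2(value + 1). Fold changes on this scale understate low genes. Alternatives were other minimums and pseudocounts, 2 rescalings, a replicate block, the count tests of DESeq2 1.42.0 and edgeR 4.0.16 run with the recovered reads, and each library left out. Replicate numbers did not pair the samples. All 24 pairs of replicates differed by more than sampling noise (chi-square per degree of freedom at least 2.04). Tests were checked on simulated data.

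Named genes were the germ-cell type genes, H2AZ1, H2AX and the H3.3 genes, 5 cluster genes known for polyadenylated mRNA, and in each comparison the 5 highest by mean, and up to 5 that rose and 5 that fell most past the test without overlap, or the 5 with the smallest p; others were chosen after their values were seen. Members, lists and tests were chosen with earlier results of these data known. Older names of 5 H2B genes were matched by hand. The values of 1 gene are not reported here. H4C14 and H4C15, H3C14 and H3C15, and H2AC18 and H2AC19 have identical transcripts and are uncertain. Tables were handled with Python 3.11.15, pandas 2.3.3, numpy 2.4.6 and scipy 1.17.1. Sequences come from GENCODE 44 and RefSeq, whose annotation may differ from the authors'.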

Additional observations from a re-analysis of the deposited data

Results flagged for a closer look

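The BCSC difference of 8 histone genes differed between HCC70 and Hs578T in the interaction test of limma, HCC70 minus Hs578T on the log2 scale. It was 0.65 for HIST1H4E, 0.55 for HIST1H4B, 0.50 for HIST1H4H, 0.42 for HIST1H1C, 0.36 for HIST1H2BB, 0.35 for HIST1H2BJ and 0.32 for HIST1H4C, where the Hs578T differences were -0.13, -0.11, -0.13, -0.15, -0.18, -0.22 and -0.08 and the HCC70 differences 0.51, 0.45, 0.37, 0.27, 0.18, 0.13 and 0.24. For HIST1H4J it was -0.98, from 0.37 in Hs578T to -0.61 in HCC70. The adjusted p ranged from 0.0228 to 0.0424 over the 8 genes. HIST1H4J in Hs578T rested on BCSC replicate 2, with 60.1, 91.2 and 48.8 TPM in BCSCs, the library that stood apart. The genes passed the threshold in 6 to 13 of 20 alternatives.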

How the results depend on the processing

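In Hs578T the 2 members called were 1 without a minimum or with a minimum mean of 5, 4 with the median of ratios or edgeR, and 1 to 3 with a library left out. In HCC70 the 2 were 1 with a pseudocount of 0.1 or quantile normalization, 0 without a minimum or with the median of ratios, 4 with a minimum of 5, 6 in edgeR, 14 in DESeq2, and 0 to 3 with a library left out. For KIF20A depletion the count of 0 became 1 only without sgCtrl replicate 3. Between EV and the libraries labelled KIF20A OE the 16 were 25 without a minimum, 8 with a minimum of 5, and 12 to 18 with a library left out. The split of 12 higher and 4 lower became 8 and 8 with quantile normalization and 8 and 4 with the median of ratios. The 8 of the interaction were 3 with the median of ratios, 2 with quantile normalization, 3 without both libraries that stood apart (added after seeing the data), and 0 to 9 with a library left out. The HIST1H2BA read ratio of 2.79 in HCC70 ranged from 2.27 to 3.92 with a library left out. The causes were not tested, except that other minimums test other numbers of genes. With the replicate block, 1 member was called in Hs578T, 1 in HCC70, 0 in the depletion table, 19 in the overexpression table and 1 for the interaction. The share of all genes called under each alternative is not given beside these counts. Samples with the same number correlated at -0.161 to 0.185, and in the overexpression table every number matched itself best, at 0.0142 to 0.0577, a hint from the data and not the design. Of 949 values under alternatives 800 kept their direction and side of the threshold. At this depth a gene with 3 reads or fewer in a group has only a limit.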
